A study of Rattus norvegicus with 6 samples.

Results

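The mitochondrial solute carriers of the SLC25 family were followed in primary rat brain microvascular endothelial cells (rBMECs) after homocysteine (Hcy). Members were taken by name, as the rows of the gene count table whose symbol is Slc25a followed by a number. There were 48 such genes among 33566 rows. Of these, 46 were annotated as protein coding, and Slc25a6 and Slc25a52 as pseudogenes. The cells came from Sprague-Dawley (SD) rats aged 18 to 22 days, from the cerebral cortex by the sample labels and the forebrain by the study's methods, were isolated with a kit and had been passaged once. The Hcy group held 3 libraries from cells given Hcy for 24 h, and the Veh group 3 libraries from cells given sterile water for the same time. The sample labels give the Hcy dose as 100 µM, whereas the treatment protocol speaks of a solution of 50 µM, so the final dose is uncertain. Both groups share the same cell source and culture, and no genetic change or disease model is involved. The series calls the libraries biological replicates but does not say that each came from a separate isolation, so the p-values below measure the spread between these libraries.

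SLC25 proteins are small carriers with a repeated fold, nearly all of which sit in the inner mitochondrial membrane. They exchange ATP for ADP, bring in phosphate, and move citrate, malate, aspartate, glutamate, acylcarnitines, nucleotides, iron, glutathione and enzyme cofactors. They are encoded in the nucleus, and those of the inner membrane are inserted there by the TIM22 translocase. Hcy is formed from S-adenosylhomocysteine, the product left when S-adenosylmethionine gives up its methyl group, and is remethylated with folate or consumed by transsulfuration. Several carriers stand next to this chemistry, among them those for S-adenosylmethionine, folate, glycine and glutathione.

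Library totals ran from 14024997 to 16764584 counts, and mitochondrially encoded genes took 3.94% to 4.81% of them. A principal component analysis was run on the 12296 genes that passed the edgeR filter filterByExpr. Its first component (30.5% of variance) parted Hcy from Veh, and the second (26.2%) set Veh replicate 3 apart from the other libraries. Without Veh replicate 3 the sign of the estimate turned for 13 of the 39 tested carriers, and each estimate printed below whose sign turned is given both ways. Endothelial markers summed to between 9940 and 10349 counts per 1000000 (CPM) in Hcy and between 8433 and 9676 CPM in Veh, with Cldn5 at 0 in every library and 0 of 11 tested markers called. Vwf (2934 and 2288 CPM) made up most of that gap and was higher in every Hcy library. So were Kdr (505 and 390 CPM), Flt1 (532 and 446 CPM) and Tie1 (1275 and 1184 CPM). In contrast, Slc2a1 (497 and 621 CPM, adjusted p = 0.0536, edgeR) and Tek (244 and 289 CPM) were lower in every Hcy library. Smooth muscle markers summed to between 674 and 702 CPM in Hcy and between 1120 and 1348 CPM in Veh. At an adjusted p of 0.05 (edgeR) 3 of 5 (Tagln, Cnn1 and Acta2) fell with Hcy, and 2.34% of all genes were called. The number of these markers called was 2 when Hcy replicate 1, 2 or 3 or Veh replicate 1 was left out. Pericyte markers summed to between 4.66 and 7.19 CPM in Hcy and between 3.50 and 4.64 CPM in Veh, and fibroblast markers to between 35.7 and 57.8 CPM and between 57.5 and 83.9 CPM, with 0 called in either list. Markers of astrocytes, microglia, neurons and oligodendrocytes reached at most 12.4 CPM in any library, and Aqp4, Slc1a2, Cx3cr1, P2ry12, Rbfox3, Snap25, Map2 and Mag were at 0 throughout. Most of the oligodendrocyte sum was Mog (9.47 to 10.4 CPM), and most of the neuron sum Tubb3 (4.14 to 7.33 CPM). The neuron marker Syt1 was at 1.75 to 2.63 CPM in Hcy and 1.08 to 1.37 CPM in Veh without overlap (log2 fold change 0.85, adjusted p = 0.195, edgeR). The part of any of these cell types in the carrier values was not tested. In bulk RNA, fewer cells of a type and less RNA per cell cannot be told apart.

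Of the 48 carriers, 39 had at least 10 counts summed over the 6 libraries and were tested. Of these, 36 exceeded 3 counts in every library. Levels are compared between genes as CPM per kilobase of the deposited gene length. The adenine nucleotide translocase Slc25a4 had the highest mean level, at 401 CPM per kb, followed by the phosphate carrier Slc25a3 at 347 and the second translocase Slc25a5 at 223. These 3 genes held 66.0% of the summed per-kb level of the tested members, whose median was 5.71 CPM per kb. Next came the glutathione carrier Slc25a39 at 123 CPM per kb, the oxoglutarate/malate carrier Slc25a11 at 70.9, the ATP-Mg/phosphate carrier Slc25a24 at 57.3, the citrate carrier Slc25a1 at 43.8 and the carnitine/acylcarnitine carrier Slc25a20 at 39.1. In the order of means, Slc25a3 and Slc25a4 lay closest at the top and their ranges over the 6 libraries overlapped, whereas every library of Slc25a5 lay below every library of both. All 48 genes together took 0.230% ± 0.00420 of the counts in Hcy and 0.235% ± 0.0124 in Veh (mean ± SD, n = 3 each).

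**Figure D1:**
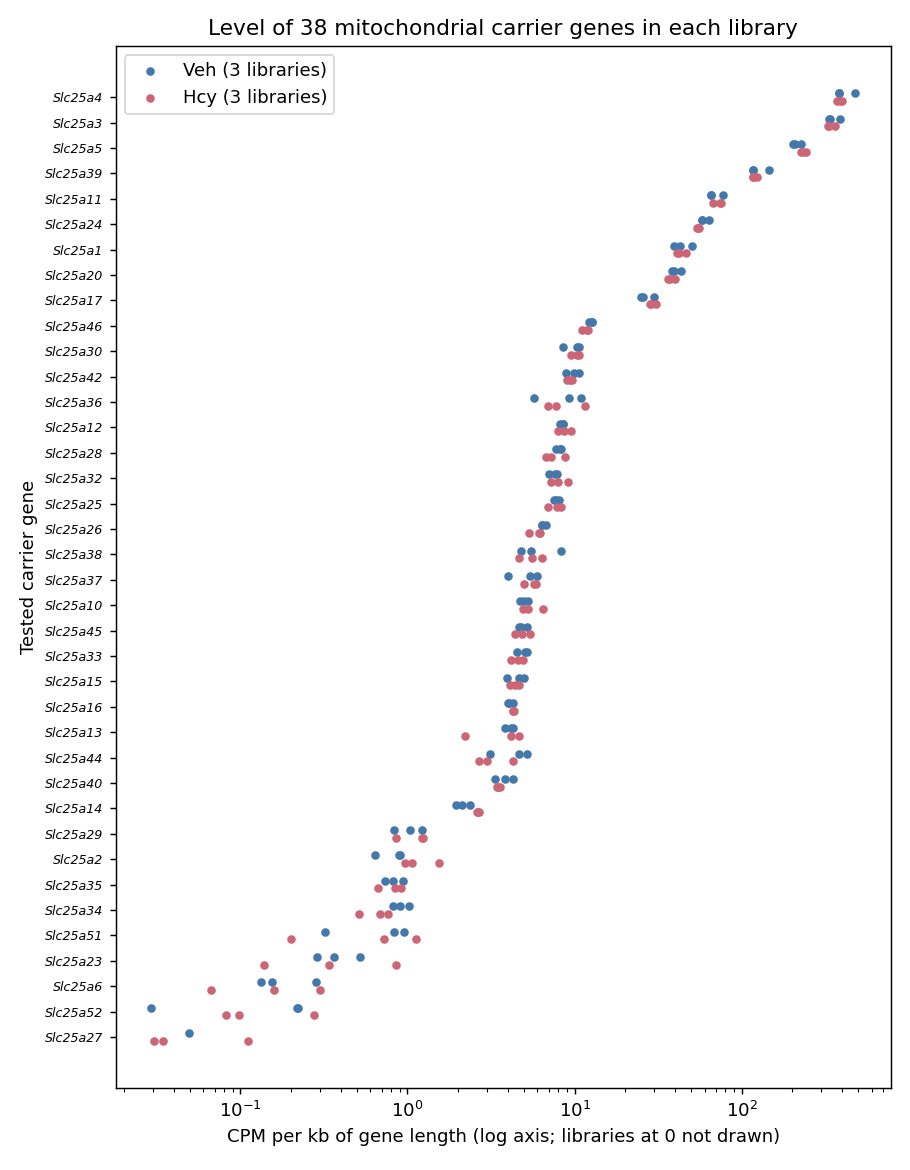
Each row is 1 of 38 tested carrier genes, ordered by mean level, and each point is 1 library, as CPM per kilobase on a log axis. The Hcy and Veh points lie on top of each other for most genes, from Slc25a4 at 401 CPM per kb down to Slc25a27.

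With Hcy, 0 of the 39 tested carriers passed an adjusted p of 0.05 with a log2 fold change of at least 1 in either direction (edgeR quasi-likelihood test, Benjamini-Hochberg adjustment over 14603 genes), against 0.486% of all genes tested. At an adjusted p of 0.05 with no limit on the fold the count was again 0, against 2.34% of all genes. At an unadjusted p of 0.05 it was also 0, against 13.4% of all genes, and DESeq2 called 0 at an adjusted p of 0.05. The smallest p among the carriers was 0.0932 (adjusted p = 0.484, edgeR), for Slc25a5. The estimate was lower in Hcy for 24 of 39 carriers, and for 53.1% of all genes. The median log2 fold change over the carriers was -0.04, beside -0.02 over all genes tested. The estimate lay within 0.25 of no change in 34 of 39 carriers (87.2%) and in 66.0% of all genes.

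A p that misses the threshold does not show equal levels, and the 95% intervals give the room that is left. The interval lay within a log2 fold change of 0.5 on either side for 25 of 39 carriers (64.1%, against 48.5% of all genes) and within 1 for 32 of 39 (82.1%, against 72.1%). Among the 26 carriers with at least 600 summed counts, 24 (92.3%) had intervals within 0.5, against 76.2% of the 9136 genes with that many counts, and all 26 had intervals within 1. The largest estimate among those 26 carriers was -0.16, for Slc25a38. Their lowest interval bound was -0.65 (Slc25a38) and their highest 0.63 (Slc25a36). The widest intervals belonged to the low members Slc25a6, Slc25a52, Slc25a27, Slc25a23 and Slc25a51, in which changes over 2-fold in either direction could not be told from none at this depth.

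**Figure D2:**
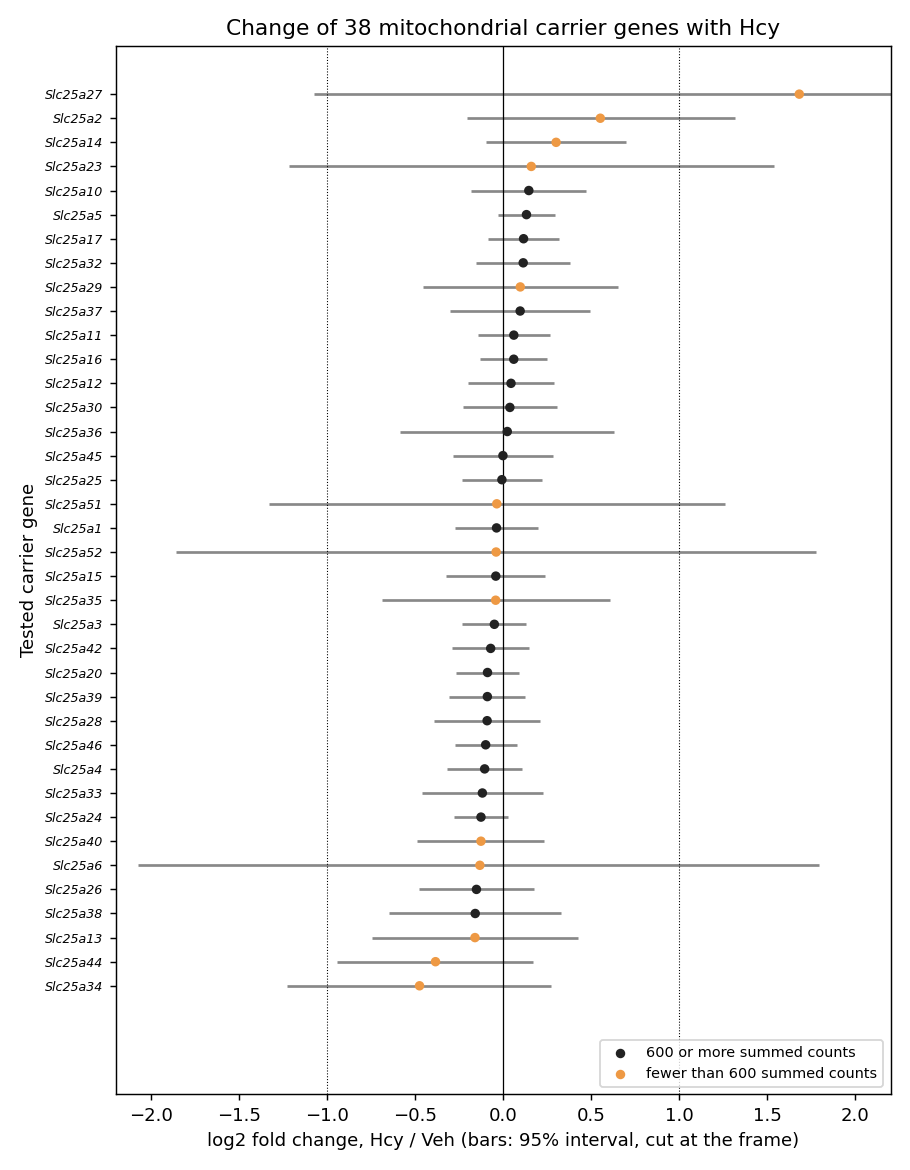
Each row is 1 of 38 tested carrier genes, with its fitted log2 fold change (point) and 95% interval (bar). Every interval crosses 0, and the black points, which mark the 25 of them with at least 600 summed counts, all lie between -0.16 and 0.15.

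The 3 leading genes supply oxidative phosphorylation, Slc25a4 and Slc25a5 by exchanging ATP for ADP and Slc25a3 by importing phosphate. Since they carried most of the family's transcript, the 250 bases before their annotated starts are shown, from RefSeq (build GRCr8) on the coding strand. Capitals mark matches, on either strand, to the TATA box (TATAA), the CCAAT box (CCAAT), the GC box (GGGCGG), an ETS motif (CCGGAAG) and an NRF1 motif (GCGCNTGCG).
Slc25a4, chr16:52805271-52805520, plus strand: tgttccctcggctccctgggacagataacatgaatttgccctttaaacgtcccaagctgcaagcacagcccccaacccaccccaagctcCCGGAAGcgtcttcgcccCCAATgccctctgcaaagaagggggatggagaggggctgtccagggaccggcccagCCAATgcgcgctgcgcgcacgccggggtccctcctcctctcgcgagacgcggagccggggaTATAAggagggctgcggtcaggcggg
Slc25a3, chr7:27506628-27506877, minus strand: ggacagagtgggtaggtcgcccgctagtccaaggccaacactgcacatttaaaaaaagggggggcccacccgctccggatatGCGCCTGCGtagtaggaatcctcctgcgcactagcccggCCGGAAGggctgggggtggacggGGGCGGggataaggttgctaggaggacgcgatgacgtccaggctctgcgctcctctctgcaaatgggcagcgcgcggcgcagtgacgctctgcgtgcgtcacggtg
Slc25a5, chrX:120897366-120897615, plus strand: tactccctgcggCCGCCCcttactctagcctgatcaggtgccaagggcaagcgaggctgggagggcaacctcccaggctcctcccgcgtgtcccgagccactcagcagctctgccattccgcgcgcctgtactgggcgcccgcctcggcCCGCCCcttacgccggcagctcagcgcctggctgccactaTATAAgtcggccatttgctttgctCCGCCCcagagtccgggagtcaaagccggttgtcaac
The translocase genes Slc25a4 and Slc25a5 had a TATAA match, at 26 to 22 and at 61 to 57 bases before the start, and Slc25a3 had none in this window.

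Promoter entries were matched by symbol for 40 of the 48 genes, as 42 entries among 33469. TATAA was present in 11.9% of carrier entries and 24.0% of all entries, and GGGCGG in 54.8% and 30.5%. CCAAT was present in 50.0% and 34.0%, CCGGAAG in 14.3% and 7.27%, and GCGCNTGCG in 2.38% and 5.03%. The cAMP response element TGACGTCA was found before Slc25a25 and Slc25a33 (4.76% of entries against 1.59% of all). The ERR motif TCAAGGTCA (0.388% of all entries) and the ATF4 element TGATGNAAT (0.944%) were not found in the carrier entries. These matches describe letters in a window, and binding was not measured.

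Slc25a4 (chromosome 16, 49266903 to 49270698, plus strand, in the deposited table, which names no build) was at 514, 499 and 483 CPM in the Hcy libraries and at 497, 493 and 618 CPM in the Veh libraries. The Hcy values fell inside the Veh range except for the lowest, and Veh replicate 3 was the highest of all. The log2 fold change was -0.10 (SE 0.09, adjusted p = 0.711, edgeR; 95% interval -0.32 to 0.11), and it was 0.01 without Veh replicate 3.

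Slc25a3 (chromosome 7, 31816602 to 31824071, minus strand) was at 535, 484 and 493 CPM in Hcy and at 502, 491 and 572 CPM in Veh. The groups overlapped and Veh replicate 3 was again the highest library. The log2 fold change was -0.05 (SE 0.08, adjusted p = 0.862, edgeR), and 0.02 without Veh replicate 3.

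Slc25a5 (chromosome X, 123404518 to 123407645, plus strand) was at 368, 344 and 353 CPM in Hcy and at 316, 309 and 346 CPM in Veh. The means were 355 ± 12.3 and 324 ± 19.7 CPM (SD, n = 3), and the lowest Hcy library lay just under the highest Veh library. The log2 fold change was 0.13 (SE 0.07, adjusted p = 0.484, edgeR; 95% interval -0.03 to 0.29). Without Veh replicate 3 it was 0.18 with an adjusted p of 0.0728 (edgeR), and over the fits that left out 1 library it ranged from 0.10 to 0.18.

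The translocases had estimates of opposite sign with all 6 libraries, and their ratio was computed after these values were seen. Slc25a5 over Slc25a4, per kilobase, was 0.607, 0.584 and 0.620 in Hcy and 0.540, 0.531 and 0.474 in Veh. The ratio was 0.604 ± 0.0185 in Hcy and 0.515 ± 0.0354 in Veh (SD, n = 3 each), so every Hcy library lay above every Veh library, with or without Veh replicate 3. As a share of the summed counts of the pair, not scaled by gene length, Slc25a5 made up 41.6% ± 0.748 in Hcy and 37.8% ± 1.64 in Veh. No test was run on this ratio because it was chosen for its appearance, and 3 libraries against 3 cannot give a two-sided exact permutation p below 0.1.

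**Figure D3:**
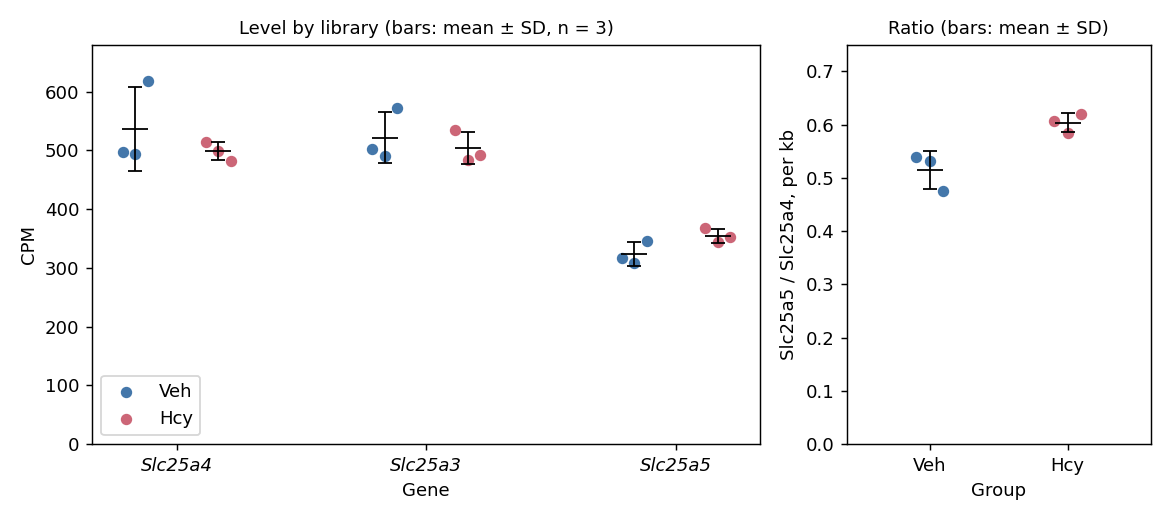
The left panel plots the CPM of Slc25a4, Slc25a3 and Slc25a5 in each library, and the right panel the per-kilobase ratio of Slc25a5 to Slc25a4, with mean ± SD (n = 3 per group). The levels overlap between Hcy and Veh, Veh replicate 3 is the top Slc25a4 point at 618 CPM, and the ratios run from 0.584 to 0.620 in Hcy and from 0.474 to 0.540 in Veh.

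Slc25a24, a calcium-regulated carrier that exchanges ATP-Mg for phosphate and so sets the adenine nucleotide pool of the matrix, was at 191, 198 and 193 CPM in Hcy and at 207, 225 and 205 CPM in Veh. All Hcy libraries lay below all Veh libraries. The log2 fold change was -0.13 (SE 0.07, adjusted p = 0.495, edgeR; 95% interval -0.28 to 0.03). The related Slc25a25 (24.2 CPM in Hcy, 24.3 in Veh) had an estimate of -0.01 (-0.06 to 0.06 with 1 library left out), and Slc25a23 was under 1 CPM in both means. The peroxisomal carrier Slc25a17 was at 51.1 ± 2.30 CPM in Hcy and 47.2 ± 4.58 CPM in Veh (log2 fold change 0.12, adjusted p = 0.652, edgeR). Over the 8 tested genes of ATP, ADP and phosphate transport the median log2 fold change was -0.03, with 0 called.

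The carriers nearest to methyl and folate metabolism were low to moderate in level. Slc25a26, which brings S-adenosylmethionine into the matrix and S-adenosylhomocysteine out, was at 6.82, 5.91 and 6.86 CPM in Hcy and at 7.12, 7.52 and 7.13 CPM in Veh. The Hcy libraries all lay below the Veh libraries, by less than 1 CPM in the means (6.53 ± 0.539 and 7.26 ± 0.226, SD, n = 3). The log2 fold change was -0.15 (SE 0.14, adjusted p = 0.730, edgeR; 95% interval -0.48 to 0.17).

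Slc25a32, the mitochondrial folate carrier, was at 16.7, 21.0 and 18.5 CPM in Hcy and at 16.3, 18.0 and 17.7 CPM in Veh. The groups overlapped, with a log2 fold change of 0.11 (SE 0.12, adjusted p = 0.758, edgeR; 95% interval -0.15 to 0.38). That estimate ranged from 0.02 to 0.19 with 1 library left out. Slc25a38, which imports glycine for heme synthesis, was at 10.7, 8.93 and 12.4 CPM in Hcy and at 9.26, 10.6 and 16.0 CPM in Veh. Veh replicate 3 was the highest library, and the log2 fold change of -0.16 (SE 0.22, adjusted p = 0.830, edgeR) became 0.10 without it.

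Enzymes that use these substrates in the matrix were read in the same fit. Of 8 tested mitochondrial folate and glycine enzymes, 3 rose with Hcy at an adjusted p of 0.05 (edgeR) and 0 fell. Of all genes tested, 2.34% were called in either direction. Mthfd1l, which makes formate from folate-bound one-carbon units, was at 109, 107 and 102 CPM in Hcy and at 71.1, 66.9 and 75.3 CPM in Veh (log2 fold change 0.58, SE 0.08, adjusted p = 0.00781, edgeR). Mthfd2, the dehydrogenase before it, rose by a log2 fold change of 0.55 (adjusted p = 0.0119, edgeR), and Shmt2, which takes the one-carbon unit from serine, by 0.36 (adjusted p = 0.0392, edgeR). In all 3 every Hcy library lay above every Veh library, as it did for 10.8% of all genes. With 1 library left out, 0 of these enzymes were called without Hcy replicate 1, 2 without Hcy replicate 2 and 3 without Veh replicate 3. Without Hcy replicate 3, Veh replicate 1 or Veh replicate 2, 1 was called (Mthfd1l). Over these fits the estimates stayed between 0.53 and 0.62 for Mthfd1l, between 0.50 and 0.60 for Mthfd2 and between 0.33 and 0.39 for Shmt2. The intervals of Mthfd1l (0.40 to 0.75) and Mthfd2 (0.37 to 0.74) reached no lower than 0.37, that of Shmt2 ran from 0.20 to 0.53, and that of the folate carrier Slc25a32 reached no higher than 0.38. In the fit of all 6 libraries the Slc25a32 interval thus overlapped those of Shmt2 and Mthfd2, and not that of Mthfd1l. The difference between carrier and enzymes was not tested.

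**Figure D4:**
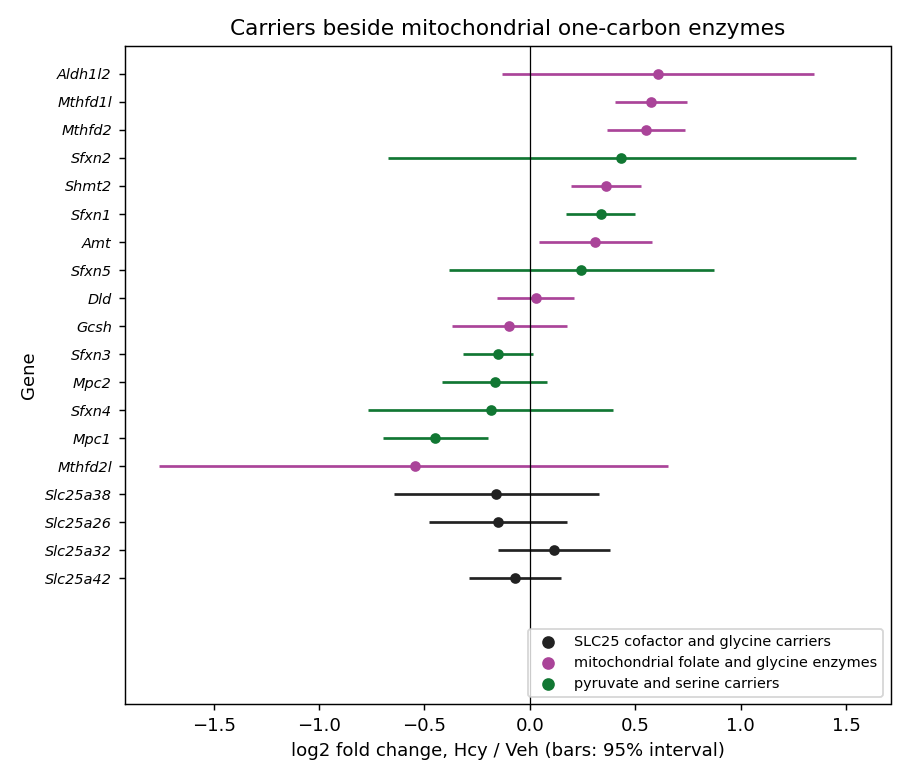
Fitted log2 fold changes (points) with 95% intervals (bars) of SLC25 cofactor and glycine carriers, of mitochondrial folate and glycine enzymes, and of the pyruvate and serine carriers outside the family. Mthfd1l, Mthfd2 and Shmt2 lie at 0.58, 0.55 and 0.36, and the intervals of the 4 SLC25 genes cross 0.

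Intervals lay within 0.5 of no change for 6 of the 9 tested nucleotide and cofactor carriers. The coenzyme A carrier Slc25a42 (26.2 CPM in Hcy, 27.6 in Veh) had a log2 fold change of -0.07. The pyrimidine nucleotide carriers Slc25a33 and Slc25a36 were at -0.12 and 0.02 (Slc25a36 at -0.20 without Veh replicate 3, and with an interval from -0.58 to 0.63). Slc25a16, linked to coenzyme A transport, was at 0.06 (27.8 and 26.7 CPM), but its deposited annotation joins the carrier domain with helicase domains and a Swiss-Prot match to DNA2, so its counts may hold reads of both. Among the 9 tested members of this group the median was -0.04.

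Of the glutathione carriers, Slc25a39 was at 178, 169 and 169 CPM in Hcy and at 170, 169 and 210 CPM in Veh. The groups overlapped and Veh replicate 3 was the highest. The log2 fold change was -0.09 (SE 0.10, adjusted p = 0.769, edgeR; 95% interval -0.31 to 0.13), and 0.02 without Veh replicate 3. Its paralog Slc25a40 was much lower, at 5.82, 5.84 and 6.03 CPM in Hcy and at 7.24, 6.44 and 5.61 CPM in Veh (log2 fold change -0.13, SE 0.16, adjusted p = 0.812, edgeR). The Slc25a40 estimate ranged from -0.21 to -0.03 with 1 library left out. Slc25a40 overlaps Rundc3b on the opposite strand over 10114 bases (573 and 456 summed counts), and whether the counting used strand is not given in the sources used here, so reads of the pair may not be told apart.

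The mitoferrins import iron for heme and iron-sulfur clusters. Slc25a28 (mitoferrin-2) was at 10.9, 13.2 and 10.2 CPM in Hcy and at 11.7, 12.4 and 12.5 CPM in Veh, with overlap and a log2 fold change of -0.09 (SE 0.13, adjusted p = 0.845, edgeR). That estimate ranged from -0.21 to -0.01 with 1 library left out. Slc25a37 (mitoferrin-1) was at 7.83, 9.20 and 8.95 CPM in Hcy and at 8.55, 9.43 and 6.30 CPM in Veh. Veh replicate 3 was here the lowest library, and the estimate of 0.10 (SE 0.18, adjusted p = 0.880, edgeR) was -0.05 without it.

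Carboxylate and acylcarnitine carriers feed the citric acid cycle, the malate-aspartate shuttle and fatty acid oxidation. Slc25a11, which exchanges oxoglutarate for malate, was at 90.8, 81.4 and 90.0 CPM in Hcy and at 79.4, 79.3 and 92.9 CPM in Veh. The groups overlapped, with a log2 fold change of 0.06 (SE 0.09, adjusted p = 0.846, edgeR; 95% interval -0.14 to 0.26). The citrate carrier Slc25a1 (74.2 and 76.2 CPM in Hcy and Veh) was at -0.04 (0.07 without Veh replicate 3), Slc25a20 (67.1 and 71.4 CPM) at -0.09, and the dicarboxylate carrier Slc25a10 (10.6 and 9.56 CPM) at 0.15. With 1 library left out Slc25a11 ranged from 0.02 to 0.14 and Slc25a10 from 0.02 to 0.22. All 4 carriers had 95% intervals within 0.5 of no change in the fit of all libraries.

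Among the amino acid carriers, the aspartate/glutamate exchangers Slc25a12 and Slc25a13 had log2 fold changes of 0.04 and -0.16, the ornithine carrier Slc25a15 of -0.04 and the basic amino acid carrier Slc25a29 of 0.10 (-0.04 without Veh replicate 3). With 1 library left out at a time, Slc25a12 ranged from -0.02 to 0.10, Slc25a13 from -0.37 to 0.10 and Slc25a15 from -0.14 to 0.03, so the sign of each turned. Slc25a44, which imports branched-chain amino acids, was at 4.96, 7.05 and 4.42 CPM in Hcy and at 7.66, 8.60 and 5.12 CPM in Veh. The groups overlapped and its estimate of -0.38 (SE 0.25, adjusted p = 0.573, edgeR) left an interval from -0.94 to 0.17, and ranged from -0.61 to -0.23 with 1 library left out. Of the 7 intervals in this group, 2 lay within 0.5 of no change and 6 within 1.

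Of the 39 tested members, 6 had groups that did not overlap, Slc25a24 and Slc25a26 among them. The Hcy libraries lay above the Veh libraries for 2 members, against 10.8% of all genes, and below them for 4 members, against 9.27% of all genes. These genes were named after their values were seen. Slc25a14, an uncoupling protein-like carrier of the brain, was at 4.81, 4.70 and 4.77 CPM in Hcy and at 4.27, 3.50 and 3.81 CPM in Veh, with a log2 fold change of 0.30 (SE 0.18, adjusted p = 0.526, edgeR). The other member above Veh was the ornithine carrier Slc25a2, at 1.15 to 1.85 CPM in Hcy and 0.761 to 1.08 CPM in Veh (log2 fold change 0.55, adjusted p = 0.543, edgeR). The remaining members below Veh were Slc25a46, an outer membrane protein of mitochondrial fission and fusion, and Slc25a34, a carrier of unsettled substrate. Slc25a46 was at 35.5 ± 1.46 CPM in Hcy and 38.0 ± 0.961 CPM in Veh (log2 fold change -0.10, adjusted p = 0.663, edgeR), and Slc25a34 was at 0.857 ± 0.170 and 1.19 ± 0.136 CPM (log2 fold change -0.47, adjusted p = 0.609, edgeR).

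With all 6 libraries the 3 tested uncoupling protein-like carriers had estimates above 0, but Slc25a30 was at -0.05 without Veh replicate 3. Besides Slc25a14, Slc25a30 was at 18.3 ± 1.03 CPM in Hcy and 17.9 ± 2.05 CPM in Veh (log2 fold change 0.04), and Slc25a27 had 6, 2 and 2 counts in Hcy and 0, 3 and 0 in Veh. The fitted value of Slc25a27, 1.68 (SE 1.27, adjusted p = 0.619, edgeR), depends on the prior count at this depth, and no order is read from it.

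The 9 untested members had at most 5 counts over the 6 libraries. Slc25a31, the germ-cell translocase, and Slc25a41, Slc25a43 and Slc25a54 had 0 counts in every library, which allows up to 3 counts a library, or 0.178 to 0.215 CPM, for counting error only. Slc25a18, Slc25a21, Slc25a22, Slc25a47 and Slc25a48 had 1 to 5 counts in all. For some members a second row carried the same Swiss-Prot match. Slc25a22, a glutamate carrier, had 1 count, whereas the row LOC100911440 with that match had 46, 1 and 33 counts in Hcy and 3, 18 and 2 in Veh. Slc25a51, which imports NAD, had 6, 36 and 26 counts in Hcy and 30, 32 and 10 in Veh, and the row Mcart1 with its match had 46, 13 and 50 and 53, 34 and 11. Reads may be split between such rows, so the values of Slc25a22, Slc25a51 and Slc25a52 are uncertain. For Slc25a5 the copy Slc25a6 had 15 counts against 31318.

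Genes that work with the carriers were read from lists. Carrier-family genes under other symbols gave 0 calls of 3 tested. Among them the uncoupling protein Ucp2 was at 435 ± 29.3 CPM in Hcy and 468 ± 54.2 CPM in Veh (log2 fold change -0.10, adjusted p = 0.711, edgeR), and Ucp1 and Ucp3 were at 0. The outer membrane channels (3 tested), the calcium uniporter complex (9) and the malate-aspartate shuttle enzymes (4) gave 0 calls each, with medians of -0.01, 0.04 and -0.01. The TIM22 import route gave 0 calls of 10, with a median of -0.13, and the regulators of mitochondrial genes 0 of 6, with a median of -0.03. The pyruvate and serine carriers of other families gave 0 calls of 7. Of these the pyruvate carrier subunit Mpc1 was at 84.4 ± 1.44 CPM in Hcy and 115 ± 18.3 CPM in Veh (log2 fold change -0.45, adjusted p = 0.0834, edgeR), and the serine carrier Sfxn1 at 87.6 ± 3.30 and 69.4 ± 2.59 CPM (log2 fold change 0.34, adjusted p = 0.0509, edgeR), both named after their values were seen.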

How the data were processed

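Poly(A) RNA libraries of 6 rBMEC cultures (3 Hcy, 3 Veh) were analysed from the table of raw read counts per gene that the authors deposited. The submitters' processing notes name fastp, HISAT2 2.2.1, StringTie 2.2.3, Cufflinks, featureCounts 2.0.6, DESeq2 1.42.0 and the build mRatBN7.2, also called rn7. The study's methods give that assembly for the alignment and DESeq2 for the comparison. The table itself names no build. Its positions, which reach 282724300 on chromosome 1, are printed as deposited and may belong to a build other than the one named. A second deposited table holds the authors' own comparison (fold changes and p-values) and was not used. Rows without a gene symbol (0.757% to 0.842% of counts) have identifiers of their own and were kept in the fit; the alternative with protein-coding genes leaves them out.

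Counts were tested with edgeR 4.0.16 (R 4.3.3, TMM, quasi-likelihood test, condition only) on 14603 genes with at least 10 summed counts, with Benjamini-Hochberg adjustment over all of them. Calls used an adjusted p of 0.05, with and without a log2 fold change of 1. CPM are TMM-normalised, and 95% intervals come from the fitted coefficient and its standard error. The script was tested on simulated data. Alternatives were DESeq2 1.42.0, other scalings and filters, a replicate block and leaving out each library.

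Values in every library were given for carriers past an unadjusted p of 0.05, the 6 highest per kb, and the carriers of S-adenosylmethionine, folate, glycine, glutathione and iron. Pathway genes past the adjusted p were named, at most 4 a list. Of the 39 tested carriers, 1 is not reported here by name or drawn, but it stays in the counts and medians. Other genes were named after their values were seen. The carriers, the gene lists and the rules were chosen with earlier results of these data known. Libraries held 14024997 to 16764584 counts. Intervals and floors cover counting error and the spread of these libraries only.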

Additional observations from a re-analysis of the deposited data

How the results depend on the processing

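The count of carriers at an adjusted p of 0.05 was 0 in all 15 settings, with or without a limit on the fold. The smallest adjusted p was 0.0728 (Slc25a5 without Veh replicate 3, edgeR), beside 0.484 with all libraries and 0.633 with DESeq2. At an unadjusted p of 0.05 the edgeR count was 0 with all libraries, 1 without Hcy replicate 2 (Slc25a44; 10.8% of all genes), 1 without Veh replicate 2 (Slc25a27; 11.9%) and 4 without Veh replicate 3 (Slc25a5, Slc25a17, Slc25a24 and Slc25a44), where 21.0% of all genes passed. The cause was not tested. Correlations of same-numbered deviations were 0.02, 0.17 and 0.06, and those of unlike numbers ran from -0.18 to 0.13. These values did not settle whether the replicate numbers pair the samples. With the replicate number as a block the carriers' median log2 fold change was -0.03, with 0 called. Leaving out 1 library at a time, that median ranged from -0.064 to 0.024, and the number of carriers whose groups did not overlap from 7 to 12, against 6 with all libraries. The 12 came without Veh replicate 3, where 38.4% of all genes did not overlap, beside 27.5% to 28.8% in the other fits and 20.1% with all libraries. Over the same fits the log2 fold change ranged from -0.16 to 0.010 for Slc25a4, from -0.10 to 0.022 for Slc25a3, from -0.15 to 0.023 for Slc25a39, from -0.31 to 0.10 for Slc25a38 and from -0.052 to 0.22 for Slc25a37. The number of folate enzymes called higher ranged from 0 to 3 over these fits, an alternative added after seeing the data. Their estimates ran from 0.53 to 0.62 for Mthfd1l, from 0.50 to 0.60 for Mthfd2 and from 0.33 to 0.39 for Shmt2. With the replicate block 2 were called, and Shmt2 had an estimate of 0.36 with an adjusted p of 0.0758 (edgeR). Of 39 tested carriers, 18 kept 1 sign in all 15 settings, and Slc25a27 in the 13 it was fitted in. Low counts and spread between libraries both widen the intervals, and their shares were not separated.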
